A study of Mus musculus with 8 samples.

Results

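The genes described here encode the enzymes and carriers of central carbon metabolism: glucose entry, glycolysis, lactate production and export, the pentose phosphate pathway, the pyruvate dehydrogenase complex, the tricarboxylic acid (TCA) cycle, and the NADP-linked and cytosolic enzymes that run beside it. They were chosen by name, 47 genes in all, out of 17097 genes on the array. Each was read from probe sets whose platform annotation gives exactly 1 gene symbol, and where a gene had several, from the probe set with the highest mean over the arrays. That rule found a probe set for 42 of the 47. Gpi1, Pgam1, Eno1, G6pdx and Rpe had none and are not analysed here.

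RNA of mouse acute myeloid leukaemia (AML) cell lines was measured on 8 Affymetrix arrays. By their labels, the 4 Trib1 hi arrays hold cells with Hoxa9 and Trib1, and the 4 Trib1 null arrays cells with Hoxa9 and no Trib1. All were grown in medium with 10% serum and 5 ng/ml of the cytokine IL-3, without treatment, and the labels say that the leukaemia cells developed in mice with both copies of Trib1 knocked out. The labels name neither the age and strain of the mice nor the number of lines, and do not say if the 4 arrays of a group are separate cultures. The p-values therefore measure the spread among these 8 arrays only, which may be technical, and Trib1 and any other difference between the lines cannot be told apart.

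Glycolysis splits glucose into pyruvate, which cells either reduce to lactate and export or hand to mitochondria, where the pyruvate dehydrogenase complex turns it into acetyl-CoA for the TCA cycle. The pentose phosphate pathway branches off near the top of glycolysis and supplies NADPH and ribose for nucleotides. Several steps have more than 1 isozyme, encoded by separate genes, and growing leukaemia cells are known for a high flow through glycolysis.

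The values of Trib1 and Hoxa9 went against the labels. The brighter Trib1 probe set gave 7.13, 7.13, 122 and 5.92 in the 4 arrays labelled Trib1 hi. On those labelled Trib1 null it gave 304, 223, 212 and 206. Trib1 passed as lower in Trib1 hi (limma, adjusted p = 0.0498), without overlap. All these values lay below the highest reading of the GC25 background control in the same group (379 and 335). Compared array by array, only Trib1 null 2 exceeded that control, at 223 against 149. Hoxa9, named in the labels of all 8 arrays, passed as lower in Trib1 hi, with 107 ± 189 against 1024 ± 43.5 (SD, n = 4 each), where the GC25 background control read 104 ± 183 against 239 ± 79.3. Hoxa9 therefore lay at background in the arrays labelled Trib1 hi. Whether either probe set covers a deleted or an introduced stretch of its gene was not examined. The labels may be wrong or exchanged, which would turn every direction printed below, and each is given as the labels have it. All 10 myeloid marker genes exceeded 500 on every array of at least 1 group, with summed signals of 78172 to 110881 in the arrays labelled Trib1 hi and 84556 to 101564 in those labelled Trib1 null. Of these, Mpo (at least 10.3-fold), Elane (5.58-fold) and Cebpa (1.80-fold) were higher and Itgam (3.08-fold), Csf3r and Spi1 lower in Trib1 hi, and their part in the differences below was not tested. No marker of lymphoid or erythroid cells (0 of 5 and 0 of 3 with a probe set) reached 500 on any array, and of 5 fibroblast and endothelial markers Pecam1 did.

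Array Trib1 hi 3 stood apart, and Trib1 null 1 less so. Of the 31 genes with a signal over 2000 on every array, Trib1 hi 3 read lowest of its group in 31, and Trib1 null 1 read lowest of its group in 28. Among the 7 genes below 500 on every array the same arrays read highest, in 7 and 7 of 7. The coefficient of variation of the 34 genes over 500 on all arrays had a median of 15.1% in the arrays labelled Trib1 hi and 6.64% in those labelled Trib1 null, and of 3.58% and 3.85% without Trib1 hi 3 and Trib1 null 1. Counts are therefore given with and without Trib1 hi 3. The low range also differed between the groups. The 75th percentile of signals was 17.5, 15.5 and 97.3 on Trib1 hi 1, 2 and 4, against 223 to 385 on the Trib1 null arrays. On the same arrays 17.9%, 17.7% and 19.0% of probe sets exceeded 500, against 20.1% to 22.6%. Trib1 hi 3 lay above both ranges, at 422 and 23.2%. The part of this group difference in the lower calls below was not tested. Dim signals shifted with the array, so fold changes were computed on geometric means after signals below 500 had been set to 500, and a fold is written "at least" where 1 group lay partly or wholly below 500.

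Central carbon genes changed in both directions. Of the 42 measured, 8 passed as higher and 7 as lower in Trib1 hi (limma, Benjamini-Hochberg adjusted p below 0.05 over 12251 genes). These shares, 19.0% and 16.7%, stand beside 11.1% and 19.7% of all genes tested. Among genes over 500 on all 8 arrays, 8 of 34 members (23.5%) were higher and 5 (14.7%) lower, against 25.9% and 25.8% of 4465 such genes. The share of changed members thus lay near that of all genes over 500 or under it, a set not further matched to the members for brightness. The median log2 difference was 0.01 over the 42 and 0.04 over all genes tested. The higher genes were Slc16a1, Pfkp, Idh3a, Pdha1, Idh2, Dlst, Pdhb and Idh3g, and the lower ones Aldoc, Idh1, Slc2a3, Ogdh, Hk3, Hk2 and Pfkm. The groups did not overlap for 5 members higher and 7 lower in Trib1 hi (13.5% and 15.8% of all genes). Those 7 include Pgls, which did not pass, and leave out Pfkm, which passed as lower with overlap. By fold, 3 members were at least 1.5-fold higher and 4 at least 1.5-fold lower (4.7% and 7.51% of all genes). After quantile normalization 15 were higher and 16 lower (27.4% and 27.4% of all genes), and scaled on bright probe sets 13 and 14 (10.3% and 20.1%). The shares beside these and the following counts are over all genes tested. They were not computed for the genes over 500 on all 8 arrays, to which most members belong, so they are not matched for brightness. Without Trib1 hi 3, 15 were higher and 10 lower (17.2% and 30.8% of all genes), with all 8 and all 7 of the calls kept. With the mean of all probe sets of a gene in place of the brightest, 2 were higher and 5 lower (5.8% and 10.5% of all genes). Of the 8 higher members only Pdha1 was kept there, and Pgk1 was a new call. The calls lost in that setting were Slc2a3 (adjusted p = 0.761), Pfkp (0.25), Slc16a1 (0.452), Idh3a (0.793), Idh2 (0.473), Ogdh (0.117), Pdhb (0.203), Idh3g (0.0505) and Dlst (0.90, with the sign turned), each the highest adjusted p of that gene over its alternatives except for Idh3g (0.191). That setting gives every probe set of a gene equal weight, also those at low signals. The other probe set averaged 2.27 against 2.42 for Slc16a1 and 13.9 against 4.56 for Pfkp, and those of Dlst had means of 4.22 to 131. For Idh3g it was bright, at 7632 against 5846. Slc2a3 had others at low signals beside a bright one (3641 against 6688). The part of low-signal probe sets in the lost calls was not tested.

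**Figure D1:**
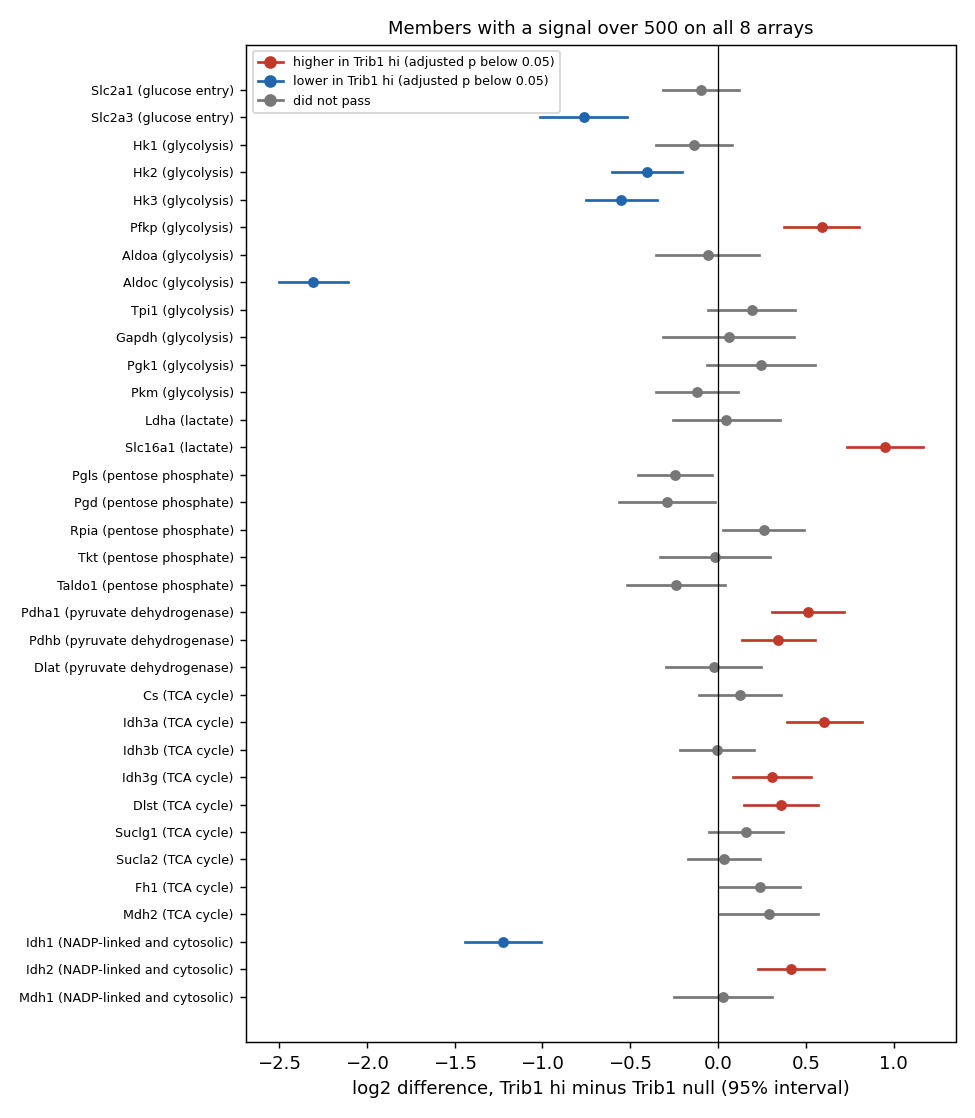
Log2 difference in signal, Trib1 hi minus Trib1 null, with its 95% interval from limma, for the 34 genes over 500 on all 8 arrays, in the order of the pathways (4 arrays per group). Aldoc lies lowest at -2.30 and Slc16a1 highest at 0.95, and 13 of the 34 genes passed the threshold after adjustment.

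Glucose entry was lower for 1 of its 2 carriers. Slc2a3, a high-affinity glucose transporter, gave signals of 8181, 8021, 5631 and 7702 in Trib1 hi, against 10838, 13292, 12510 and 13128 in Trib1 null. The groups did not overlap, and the gene fell 1.70-fold (log2 difference -0.76 ± 0.12 SE, adjusted p = 6.32e-06). Its other bright probe set, which was not used for the test, averaged 3641 against 6688. Slc2a1, the widely expressed glucose transporter, averaged 1433 ± 138 against 1528 ± 62.7 (SD, n = 4 each) and did not pass (log2 difference -0.10, 95% interval -0.31 to 0.12).

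The hexokinases, which trap glucose in the cell as its phosphate, had 2 lower members of 3. Hk3, the form typical of myeloid cells, gave signals of 3854, 3843, 2919 and 3608 in Trib1 hi, against 4841, 5685, 5199 and 5017 in Trib1 null, and fell 1.46-fold (adjusted p = 3.94e-05). Hk2, the form bound to mitochondria in many growing cells, averaged 3056 ± 381 against 4032 ± 317 and fell 1.32-fold (adjusted p = 0.00154). That call was lost with a variance model without a trend (adjusted p = 0.0787, range over alternatives 1.04e-07 to 0.0787). Neither gene overlapped between the groups. Hk1 averaged 3858 ± 679 against 4195 ± 222 and did not pass (log2 difference -0.14, 95% interval -0.35 to 0.08). Hk1 did pass as lower after quantile normalization (log2 difference -0.23, adjusted p = 0.00120) and scaled on bright probe sets (-0.22, 0.00508, range over alternatives 0.00120 to 0.859).

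Phosphofructokinase commits sugar phosphate to glycolysis, and mammals have a platelet, a liver and a muscle gene for it. The platelet gene Pfkp gave signals of 6215, 6069, 4419 and 6243 in Trib1 hi, against 3505, 3952, 3823 and 3818 in Trib1 null. All 4 values of the arrays labelled Trib1 hi lay above all 4 of the others, and Pfkp rose 1.51-fold (log2 difference 0.59 ± 0.10 SE, adjusted p = 2.85e-05). The liver gene Pfkl and the muscle gene Pfkm lay below 500 on every array. Pfkm passed the test as lower (adjusted p = 0.0103) at signals of 19.7, 14.3, 380 and 10.2 against 443, 334, 426 and 334, a range in which Trib1 hi 3 read like the other group, and no fold is given. The Pfkm call was lost without Trib1 null 3 (adjusted p = 0.0534) or a variance trend (0.0726, range over alternatives 6.07e-05 to 0.0726).

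Aldolase splits the resulting sugar bisphosphate, and 1 of its 2 measured genes passed the test. Aldoc, known mainly from brain, gave signals of 845, 785, 893 and 780 in Trib1 hi, against 3929, 4241, 4138 and 4024 in Trib1 null. It fell 4.95-fold (log2 difference -2.30 ± 0.10 SE, adjusted p = 5.81e-19), and the call held under all 20 alternatives tried. Aldoa, the ubiquitous aldolase, averaged 16901 ± 2596 against 17487 ± 1518 and did not pass (log2 difference -0.06, 95% interval -0.35 to 0.24). Aldoa passed as lower after quantile normalization (log2 difference -0.11, adjusted p = 0.00453) and scaled on bright probe sets (-0.14, 9.53e-05, range over alternatives 9.53e-05 to 1.00), and its sign turned without Trib1 hi 3 (0.06).

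**Figure D2:**
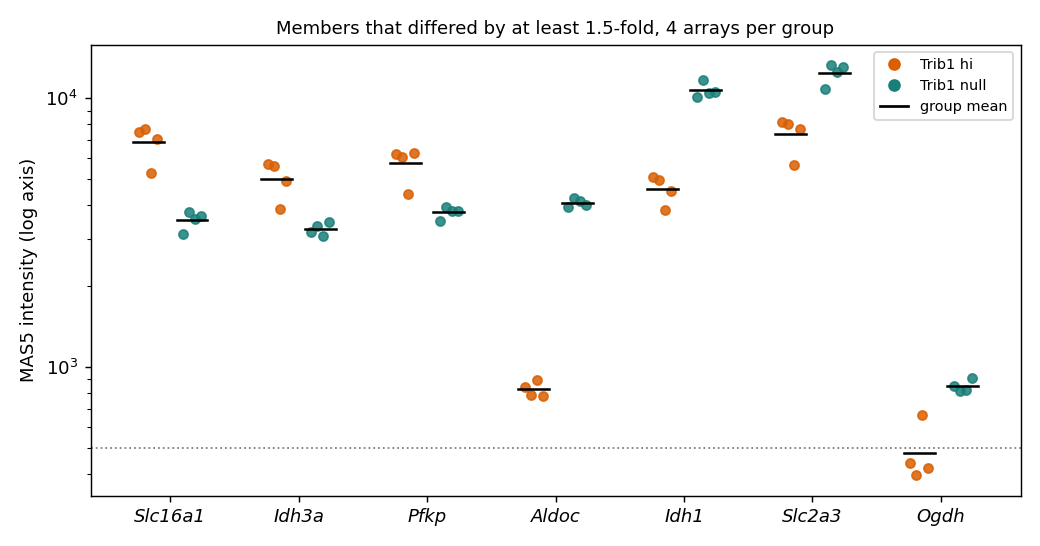
MAS5 intensity on a log axis for the 7 genes that passed the test and differed by at least 1.5-fold, each point 1 array, 4 per group, with the group mean as a bar and a dotted line at 500. Slc16a1, Idh3a and Pfkp lie higher and the other 4 lower in Trib1 hi, with no overlap between the groups in any of the 7.

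The lower steps of glycolysis did not pass the test. Tpi1 (triose phosphate isomerase) averaged 9975 ± 1657 against 8649 ± 761, Pgk1 (phosphoglycerate kinase) 19833 ± 3300 against 16618 ± 1844, and Pkm (pyruvate kinase) 7802 ± 1231 against 8397 ± 554. Gapdh, whose enzyme makes the first NADH of the pathway, averaged 29914 ± 5361 against 28376 ± 2514, with a 95% interval of the log2 difference from -0.31 to 0.43. The 3 Gapdh control probe sets of the array gave log2 differences of 0.12 to 0.13. Without Trib1 hi 3, Tpi1 rose by 0.32 on the log2 scale (adjusted p = 0.00497, range over alternatives 0.00215 to 0.596) and Pgk1 by 0.38 (adjusted p = 0.00772, range over alternatives 3.86e-06 to 0.546), whereas Gapdh (adjusted p = 0.0782, range 0.0289 to 1.00) and Pkm (0.953, range 1.62e-06 to 0.953) did not pass. The other Pgk1 probe set averaged 12696 ± 2651 against 8314 ± 1656, and the mean of both passed as higher (log2 difference 0.43, adjusted p = 0.0187). After quantile normalization and scaling on bright probe sets, Tpi1 and Pgk1 passed as higher and Pkm as lower. Eno3, the muscle enolase, lay below 500 on every array.

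The lactate carrier passed the test and lactate dehydrogenase did not. Slc16a1, a proton-linked transporter of lactate and pyruvate, gave signals of 7513, 7663, 5281 and 7053 in Trib1 hi, against 3137, 3764, 3570 and 3640 in Trib1 null. It rose 1.93-fold without overlap, the largest increase among the 42 genes measured (log2 difference 0.95 ± 0.11 SE, adjusted p = 1.16e-08). Ldha, which reduces pyruvate to lactate, averaged 18374 ± 3100 against 17634 ± 1713 (log2 difference 0.05, 95% interval -0.26 to 0.35). Ldhb, the other main subunit, and Slc16a3, the lactate carrier of highly glycolytic cells, lay below 500 on every array.

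The promoters of the genes with the largest measured folds in each direction that have an entry are shown, so that the motifs in them can be read. They are the RefSeq windows of GRCm38.p6 from 250 bases before to 50 after a transcript start, for Slc16a1 (chr3:104638414-104638713, plus strand) and Pfkp (chr13:6648722-6649021, minus strand), which were higher, and Aldoc (chr11:78322823-78323122, plus strand) and Idh1 (chr1:65186430-65186729, minus strand), which were lower. Aldoc and Idh1 have 2 windows each, of which the one listed at the top of the table is shown. Capitals mark CACGTG, the E-box of MYC and MAX, and ACGTG and GCGTG, the core letters bound by HIF, on either strand.
Slc16a1: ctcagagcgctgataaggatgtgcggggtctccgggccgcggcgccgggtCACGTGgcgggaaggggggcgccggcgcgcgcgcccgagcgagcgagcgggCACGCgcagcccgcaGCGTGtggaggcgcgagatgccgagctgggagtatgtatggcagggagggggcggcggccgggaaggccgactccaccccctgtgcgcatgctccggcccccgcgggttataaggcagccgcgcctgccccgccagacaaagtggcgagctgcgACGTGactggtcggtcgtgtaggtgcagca
Pfkp: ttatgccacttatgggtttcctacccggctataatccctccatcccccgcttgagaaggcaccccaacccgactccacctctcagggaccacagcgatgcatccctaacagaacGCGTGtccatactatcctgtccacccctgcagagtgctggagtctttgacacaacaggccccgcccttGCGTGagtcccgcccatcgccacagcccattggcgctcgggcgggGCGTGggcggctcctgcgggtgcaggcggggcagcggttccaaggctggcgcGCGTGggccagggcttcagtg
Aldoc: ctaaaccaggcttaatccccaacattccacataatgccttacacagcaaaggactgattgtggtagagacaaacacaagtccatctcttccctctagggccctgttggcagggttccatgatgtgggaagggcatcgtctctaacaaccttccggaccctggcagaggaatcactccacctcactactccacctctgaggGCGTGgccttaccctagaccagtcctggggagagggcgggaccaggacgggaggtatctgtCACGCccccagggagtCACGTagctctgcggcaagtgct
Idh1: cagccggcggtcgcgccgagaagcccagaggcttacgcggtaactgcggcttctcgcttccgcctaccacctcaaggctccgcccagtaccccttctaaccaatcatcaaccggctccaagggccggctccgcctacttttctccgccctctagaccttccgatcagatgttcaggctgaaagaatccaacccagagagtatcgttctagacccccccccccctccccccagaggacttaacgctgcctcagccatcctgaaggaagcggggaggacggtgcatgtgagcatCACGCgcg
Slc16a1 holds 1 CACGTG, which begins 200 bases before the start, 1 further ACGTG and 2 GCGTG. Pfkp holds 4 GCGTG, Aldoc 2 GCGTG and 1 ACGTG, and Idh1 1 GCGTG. Over the 63 windows of the 44 genes that have 1, some of which overlap, CACGTG was found in 9.52%, ACGTG (which lies within each CACGTG) in 42.9% and GCGTG in 58.7%, against 7.15%, 19.6% and 32.4% of all 32851 windows. The windows were not matched for base composition, and a match is a description of letters only. Myc itself averaged 6669 ± 1098 against 5482 ± 424 (adjusted p = 0.0647) and Hif1a 12779 ± 2005 against 11724 ± 837 (adjusted p = 0.601), and neither passed. Without Trib1 hi 3 both passed as higher, Myc with an adjusted p of 0.000982 (range over alternatives 0.000579 to 0.306) and Hif1a with 0.0136 (range 0.00280 to 0.956).

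None of the 5 measured pentose phosphate genes passed (0 higher, 0 lower), where 11.1% of all genes tested were higher and 19.7% lower. Among genes over 500 on all arrays, as these 5 were, the shares were 25.9% and 25.8%. Pgd (phosphogluconate dehydrogenase, an NADPH-producing step) averaged 13289 ± 1897 against 16147 ± 1171, and Pgls (phosphogluconolactonase) 5301 ± 721 against 6242 ± 306 (adjusted p = 0.108 and 0.0720). The other members were Taldo1 (transaldolase), 13644 ± 2128 against 15953 ± 1257, Tkt (transketolase), 19400 ± 3294 against 19427 ± 1582, and Rpia (ribose phosphate isomerase), 8818 ± 1392 against 7291 ± 283. These counts depended on how the arrays were scaled. With each array scaled to the same mean log2 signal over 3652 bright probe sets, a setting added after seeing the data, Pgd (log2 difference -0.37), Pgls (-0.33), Taldo1 (-0.32) and Tkt (-0.10) passed as lower and Rpia (0.18) as higher, and quantile normalization gave the same 5 directions and calls (-0.34, -0.37, -0.28, -0.07 and 0.16). Of all genes tested, 10.3% were higher and 20.1% lower when scaled on bright probe sets, and 27.4% and 27.4% after quantile normalization. Without Trib1 hi 3, Pgls passed as lower (adjusted p = 0.0481), Rpia as higher (0.000175), and Tkt changed sign (log2 difference 0.12, adjusted p = 0.249). Adjusted p ranged over alternatives from 1.04e-14 to 0.269 for Pgd, 2.63e-08 to 0.268 for Pgls, 3.30e-12 to 0.435 for Taldo1, 0.00550 to 1.00 for Tkt and 0.000140 to 0.285 for Rpia.

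Pyruvate dehydrogenase joins glycolysis to the TCA cycle, and both genes of its decarboxylating component rose. Pdha1, the catalytic alpha subunit, gave signals of 6659, 6993, 5286 and 6726 in Trib1 hi, against 4114, 4760, 4687 and 4363 in Trib1 null. It rose 1.43-fold without overlap (adjusted p = 0.000133), and this call held under all 20 alternatives. Pdhb, the beta subunit, averaged 5053 ± 741 against 3950 ± 185 and rose 1.27-fold (adjusted p = 0.00854), with Trib1 hi 3 inside the range of the arrays labelled Trib1 null. That call was lost without Trib1 hi 1 (adjusted p = 0.0554), with signals below 500 set to 500 (0.0727) and without a variance trend (0.136, range over alternatives 0.000206 to 0.203). Dlat, the acetyltransferase that carries the acetyl group onward, averaged 931 ± 100.8 against 943 ± 22.5 (log2 difference -0.02, 95% interval -0.29 to 0.25), but under quantile normalization its log2 difference of 0.21 passed as higher (adjusted p = 0.00969, with 0.00969 to 1.00 over all alternatives).

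The TCA cycle had 3 higher and 1 lower of 10 genes, where 11.1% and 19.7% of all genes tested, and 25.9% and 25.8% of those over 500 on all arrays, passed in each direction. Idh3a, the catalytic subunit of the NAD-dependent isocitrate dehydrogenase, gave signals of 5683, 5601, 3867 and 4934 in Trib1 hi, against 3175, 3349, 3076 and 3469 in Trib1 null. It rose 1.52-fold without overlap (log2 difference 0.60 ± 0.10 SE, adjusted p = 2.28e-05). The regulatory subunits of the same enzyme differed less. Idh3g averaged 7992 ± 1151 against 6418 ± 415 and rose 1.24-fold (adjusted p = 0.0311), a call lost without any of 5 single arrays, with signals below 500 set to 500 (0.127), without the filter on low values (0.0853) and without a variance trend (0.191, range over alternatives 2.59e-05 to 0.191). Idh3b averaged 6009 ± 837 against 5986 ± 261 (log2 difference -0.00, 95% interval -0.22 to 0.21), and under quantile normalization its log2 difference of -0.12 passed as lower (adjusted p = 0.00104, with 0.00104 to 1.00 over all alternatives).

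The oxoglutarate dehydrogenase complex, the next step of the cycle, had subunits on both sides. Dlst, its succinyltransferase, averaged 3636 ± 579 against 2804 ± 89.8 and rose 1.28-fold (adjusted p = 0.00655), a call lost with signals below 500 set to 500 (0.0839) and without a variance trend (0.139, range over alternatives 3.82e-05 to 0.90). Ogdh, its decarboxylase, gave signals of 440, 396, 661 and 421 in Trib1 hi, against 847, 816, 820 and 907 in Trib1 null. It fell at least 1.58-fold without overlap (adjusted p = 0.000562). The added control transcript dap, which is not of mouse origin, was also lower in Trib1 hi, over 6 probe sets with means of up to 2963. Its log2 differences were -0.79 to -0.39 with signals below 500 set to 500, and -1.27 to -0.50 without that floor. The added control bioD, whose signals of 1628 to 4533 lay near those of the brighter dap probe sets, differed by 0.03 to 0.16 and the brighter control cre by 0.01 to 0.04. The step at which each control was added was not examined, so these controls may not record the same shift. The part of the dap shift in the Ogdh value and in other decreases at such signals was not tested.

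The other 6 genes of the cycle did not pass. Cs (citrate synthase) averaged 8429 ± 1248 against 7668 ± 678 and Mdh2 (mitochondrial malate dehydrogenase) 16022 ± 2549 against 13003 ± 1266. Fh1 (fumarase) averaged 5807 ± 1051 against 4869 ± 385, and Suclg1 and Sucla2, subunits of succinyl-CoA ligase, 6570 ± 820 against 5848 ± 287 and 4871 ± 646 against 4731 ± 326. Without Trib1 hi 3, Fh1 (log2 difference 0.37, adjusted p = 0.00312, range over alternatives 0.00187 to 0.436), Mdh2 (0.41, 0.00359, range 4.11e-06 to 0.372), Suclg1 (0.25, 0.00576, range 0.00528 to 0.583) and Cs (0.24, 0.0248, range 0.00373 to 0.980) passed as higher.

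**Figure D3:**
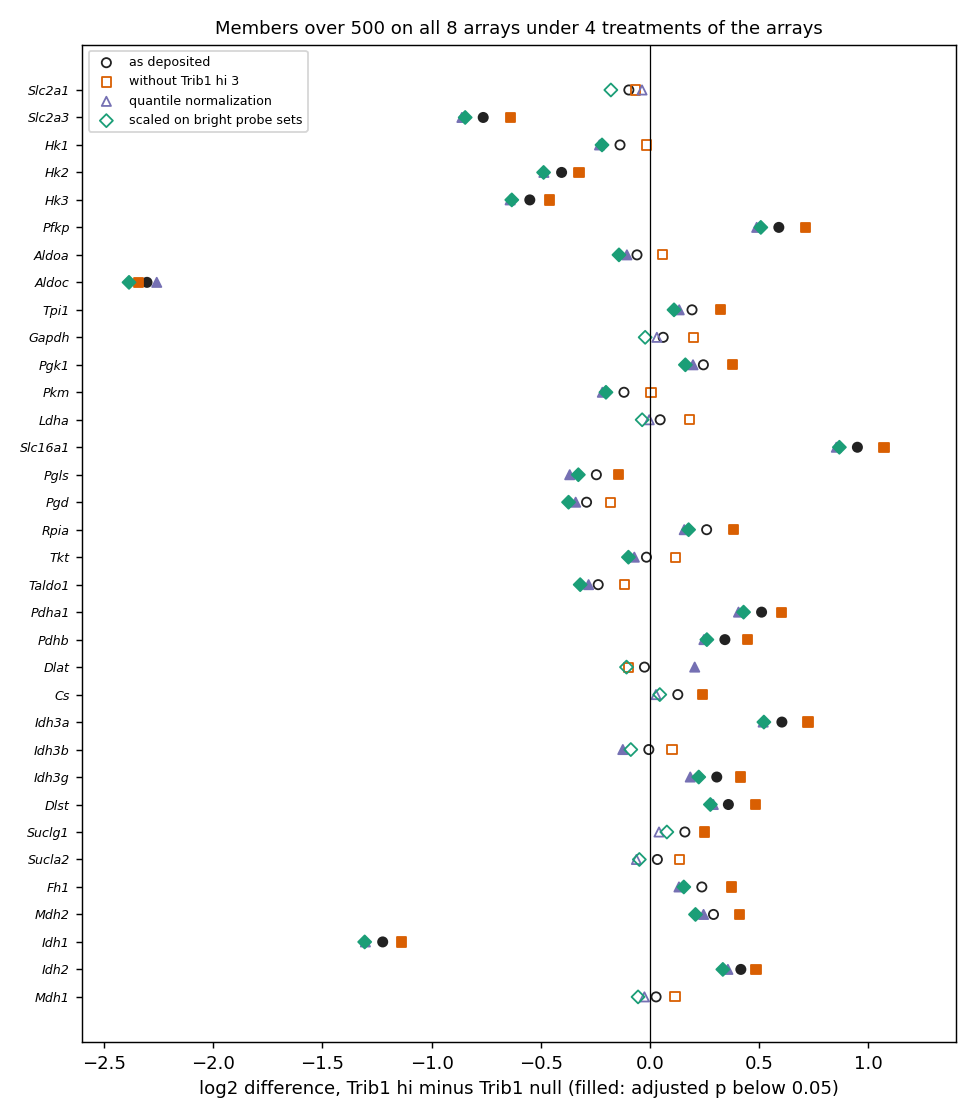
Log2 difference, Trib1 hi minus Trib1 null, of the 34 genes over 500 on all 8 arrays, with the arrays as deposited, without Trib1 hi 3, after quantile normalization and scaled on bright probe sets. Filled symbols have an adjusted p below 0.05. Slc16a1, Pfkp, Idh3a, Pdha1, Idh2, Dlst, Pdhb, Idh3g, Aldoc, Idh1, Slc2a3, Hk3 and Hk2 are filled under all 4, and Tkt, Aldoa, Mdh1, Ldha, Gapdh, Pkm, Sucla2, Dlat and Idh3b lie on both sides of 0.

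Isocitrate dehydrogenases outside the NAD-linked enzyme went opposite ways. Idh1, the NADP-dependent enzyme of the cytosol and peroxisomes, gave signals of 5076, 4980, 3836 and 4523 in Trib1 hi, against 10119, 11665, 10472 and 10581 in Trib1 null. It fell 2.34-fold without overlap (log2 difference -1.22 ± 0.11 SE, adjusted p = 3.28e-11), and the call held under all 20 alternatives. Idh2, its mitochondrial counterpart, read 3697, 3596, 3013 and 3673 against 2552, 2700, 2697 and 2492 and rose 1.34-fold (adjusted p = 0.000594), also without overlap. Both enzymes make NADPH, and both genes are known as sites of mutation in human AML. Mdh1, the cytosolic malate dehydrogenase, averaged 16569 ± 2026 against 16176 ± 1033. The probe sets used for the malic enzymes Me1 and Me2 lay below 500 on every array. The brightest Me2 probe set is annotated to both Me2 and Nob1 and was not used. It averaged 1493 ± 20.8 in Trib1 hi against 1270 ± 84.2 in Trib1 null.

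Ratios taken within an array do not change when that array is multiplied by 1 factor, though they can under quantile normalization. The log2 ratio of Idh1 to Idh2 signal differed by -1.64, at 0.39 ± 0.08 in the arrays labelled Trib1 hi against 2.04 ± 0.07 in those labelled Trib1 null (SD, n = 4 each), and that of Idh1 to Idh3a by -1.83, at -0.12 ± 0.07 against 1.71 ± 0.09. The ratio of Aldoc to Aldoa differed by -2.25, with -4.34 ± 0.32 against -2.10 ± 0.08. The differences for Slc2a3 to Slc2a1, Hk2 to Hk1 and Hk3 to Hk1 were -0.67, -0.27 and -0.41, and those for Idh3a to Idh3b and Slc16a1 to Ldha were 0.61 and 0.90. For Pdha1 to Dlat the difference was 0.54. The groups overlapped for Pdha1 to Dlat and not for the other 8 of these 9 ratios, which were chosen with earlier results known and given no test. The ratio of Aldoc to Aldoa was -3.88 on Trib1 hi 3 and -4.60 to -4.37 on the other Trib1 hi arrays. Such a ratio shows unequal change of 2 probe sets and says nothing of their relative abundance.

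**Figure D4:**
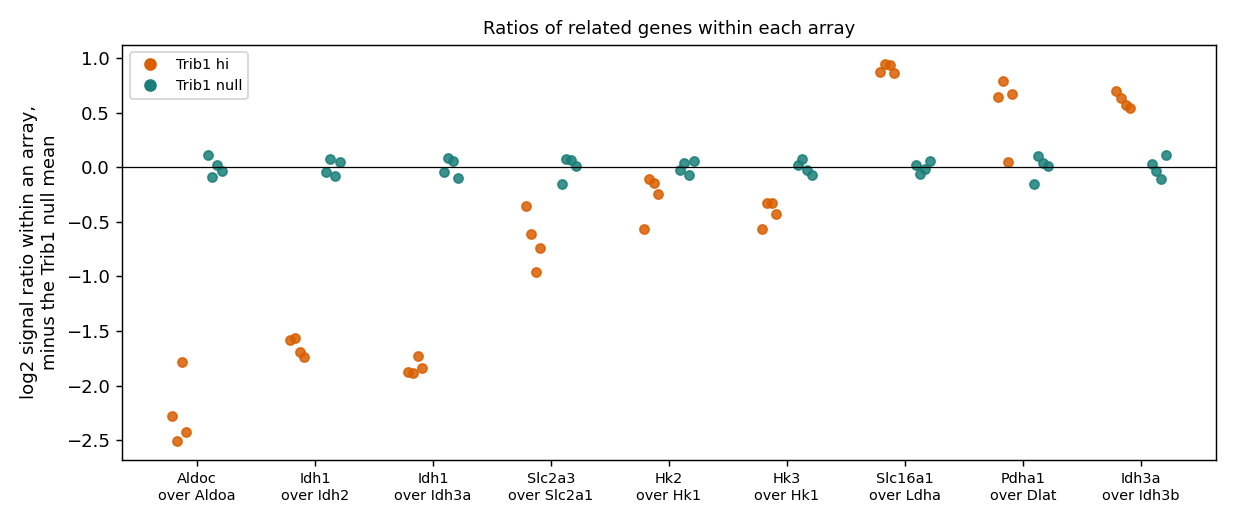
Log2 ratio of 2 signals within each array, minus the mean of the Trib1 null arrays, for 9 pairs of related genes, 4 arrays per group. The Trib1 hi points lie below those of Trib1 null for 6 pairs, above them for Idh3a over Idh3b and Slc16a1 over Ldha, and overlap them for Pdha1 over Dlat, and the pair Idh1 over Idh3a differs by -1.83.

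Among 68 other genes of the same pathways, 55 had a probe set and 44 passed the filter on low values, of which 1 was higher and 15 lower (2.27% and 34.1%, beside the 11.1% and 19.7% of all genes). Of the 20 over 500 on all 8 arrays, 1 was higher and 7 lower (5.0% and 35.0%, beside 25.9% and 25.8% of all such genes). Pck2, the mitochondrial phosphoenolpyruvate carboxykinase, averaged 4902 ± 643 against 1576 ± 27.1 and rose 3.09-fold (adjusted p = 6.63e-15). H6pd, the glucose phosphate dehydrogenase of the endoplasmic reticulum, averaged 380.4 ± 205 against 1585 ± 71.5 and fell at least 2.98-fold (adjusted p = 2.16e-09). Slc25a1, the mitochondrial citrate carrier, fell 1.70-fold (1841 ± 59.1 against 3136 ± 258), Pfkfb3, which makes the activator of phosphofructokinase, 1.54-fold (844 ± 107 against 1292 ± 59.1), and Pdk1 and Pdk3, kinases that inhibit pyruvate dehydrogenase, 1.37-fold and 1.28-fold. The phosphoglucomutases Pgm2 and Pgm1 fell at least 1.66-fold and 1.37-fold. With signals below 500 set to 500, 1 was higher and 8 lower (9.31% and 13.0% of all genes), and without Trib1 hi 3 the counts were 6 higher and 20 lower (17.2% and 30.8% of all genes). Aco1 and Slc25a10, among the 15, lay below 500 on every array.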

How the data were processed

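Total RNA (100 ng each) of 4 Trib1 hi and 4 Trib1 null samples was hybridised to Affymetrix arrays. The authors deposited 1 intensity per probe set, made with MAS5 per the submitters' processing notes, for 45141 probe sets. No other step is named there, and no column lacked a sample. The platform annotation gave 1 symbol for 28898 probe sets and several for 551, which were not used. Per gene the probe set with the highest mean was kept.

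Values were tested as log2(intensity + 2.71) with limma 3.58.1 in R 4.3.3 (lmFit, eBayes with a trend) over 12251 genes with a mean log2 value above 3.01, the 40th percentile of probe sets, p-values adjusted by Benjamini-Hochberg and called below 0.05. The added 2.71 shrinks log2 differences only at signals near that size. At other signals below 500, differences on that scale can be large, as for Pfkm (-3.37), which lay below 500 on every array. The GC25 background control differed by -2.93 without the added 2.71. For H6pd the log2 difference was -2.21 on that scale and -1.58 with signals below 500 set to 500. The number of arrays limits the precision. On simulated data for this comparison with 12251 genes, 79 of 100 genes changed 1.5-fold and 98 of 100 changed 2-fold were recovered, with 13 false calls. The changed genes were all drawn from bright ones, so recovery of dim genes was not measured. Noise was drawn separately for each gene and array, so shifts shared by a whole array, as on Trib1 hi 3, were absent from the simulation.

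Members and lists were chosen with earlier results of these data known. Named with every array's value were members that passed and differed at least 1.5-fold; Hk3, Pdha1, Idh2 and Pfkm were added after their values were seen. Up to 2 members per pathway that did not pass, the other members by value, up to 8 further pathway genes with the largest folds, and Trib1, Hoxa9, Myc and Hif1a were also named. Alternatives covered filters, pseudocounts of 16 and 100, a floor of 500, scalings, probe set choice, the variance model, the replicate block and leaving out arrays. Scaling on bright probe sets and leaving out both Trib1 hi 3 and Trib1 null 1 were added after seeing the data. Same-numbered arrays deviated together for number 2 (r = 0.306, against at most 0.059 for Trib1 hi 2 with other Trib1 null arrays). For numbers 1, 3 and 4, r was -0.302, -0.083 and 0.019, against at most 0.296, 0.351 and 0.031 (5326 genes). The numbers were not taken as pairs. Shifts of whole arrays, as on Trib1 hi 3, enter these deviations, so they cannot settle whether arrays were paired.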

Additional observations from a re-analysis of the deposited data

Results flagged for a closer look

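In 22 of 84 groups of 4 arrays, 1 array lay far from the other 3 by Dixon's test, where chance alone gives about 1 in 20. Trib1 hi 3 was that array in 17 and Trib1 null 1 in 5. Among genes over 500 on all arrays, Trib1 hi 3 read low for Pfkp (4419), Tpi1 (7498), Pgk1 (14907), Pkm (5973), Ldha (13773), Rpia (6744), Taldo1 (10487), Sucla2 (3906) and Idh2 (3013). Among dimmer genes it read high, for Pfkl (319), Pfkm (380.1), Eno3 (154), Ldhb (200.5), Slc16a3 (63.1), Ogdh (661), Me1 (111) and Me2 (346). Trib1 null 1 read low for Hk1 (3867), Pgd (14407) and Cs (6664) and high for Slc16a3 (11.6) and Me1 (53.6).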

How the results depend on the processing

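Of 826 recomputed values of single members, 705 kept their direction and side of the threshold, 24 kept their direction and lost the threshold, 59 newly passed it and 38 changed sign. No called gene passed in the opposite direction. The count of higher members, 8, became 5 with signals below 500 set to 500, 15 after quantile normalization, 2 with the mean of all probe sets, 5 without a variance trend, 13 scaled on bright probe sets and 16 without both Trib1 hi 3 and Trib1 null 1. Leaving out 1 array gave 6 to 15, the highest without Trib1 hi 3. The count of lower members, 7, became 16, 14 and 13 under quantile normalization, scaling on bright probe sets and leaving out both arrays, and 6 to 10 without 1 array. There were 1363 genes higher in Trib1 hi and 2409 genes lower in Trib1 hi. The count of genes higher was 3358 after quantile normalization (with 3352 lower), 711 with the mean of all probe sets, 2698 without both arrays and 1153 to 2103 without 1 array. The count of genes lower was 1594 with the floor of 500, 1285 with the mean of all probe sets, 1274 without a trend, 3903 without both arrays and 1964 to 3768 without 1 array. Of the other pathway genes, 7 were higher after quantile normalization, 7 without both arrays and 1 to 6 without 1 array, and 8, 7 and 6 were lower with the floor, the mean of all probe sets and no trend, and 12 to 20 without 1 array.

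Log2 differences changed sign for Ldha (-0.00307), Slc16a3 (-0.28), Dlat (0.21), Sucla2 (-0.0617), Mdh1 (-0.0251) and Me2 (0.67) after quantile normalization. They did so for Gapdh (-0.0217), Ldha (-0.0355), Sucla2 (-0.0483) and Mdh1 (-0.0542) scaled on bright probe sets, Idh3b (0.0393), Dlst (-0.23) and Mdh1 (-0.11) with the mean of all probe sets, Idh3b (0.0026) at the same 90th percentile, Aldoa (0.00323), Tkt (0.0584) and Idh3b (0.0773) without both arrays. Leaving out 1 array gave ranges of -0.12 to 0.0576 for Aldoa, -0.0106 to 0.20 for Gapdh, -0.17 to 0.00459 for Pkm, -0.0148 to 0.18 for Ldha, -0.29 to 0.89 for Slc16a3, -0.0747 to 0.12 for Tkt, -0.0978 to 0.0146 for Dlat, -0.0552 to 0.10 for Idh3b, -0.00982 to 0.14 for Sucla2, -0.0188 to 0.12 for Mdh1 and -0.65 to 1.01 for Me1. The causes were not tested. The median log2 difference of all genes was 0.04, and -0.32 without Trib1 hi 3. With the replicate block, 8 members were higher and 7 lower (1284 genes higher in Trib1 hi and 2346 genes lower in Trib1 hi, 1 and 13 of the other pathway genes), and the numbers were not taken to pair the arrays. Calls at signals below 500 on every array, which include Pfkm, Aco1 and Slc25a10, were given no fold.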
